A study of Mus musculus with 24 samples.

Results

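Changes in gene expression over the third day of retinoid exposure were measured by setting the arrays at 72 h against the arrays at 48 h in P19 cells that received all-trans retinoic acid (ATRA) or BMS753, each at 1 µM. P19 is a mouse embryonal carcinoma line, a tumour-derived line of pluripotent cells, and was grown here in monolayer on gelatine-coated plates. The comparison used 4 arrays of 24, 1 for each agent at each time, paired by agent, so each time had 2 arrays. The other arrays were ATRA and BMS753 at 2, 6 and 24 h, BMS641 and BMS961 at 2, 6, 24, 48 and 72 h, each at 0.1 µM, and 4 arrays of EtOH (ethanol, the control), which carry no time. BMS753, BMS641 and BMS961 are agonists of the retinoic acid receptors RARα, RARβ and RARγ in that order. P19 is 1 cell line, and nothing in the labels tells whether the arrays stem from separate cultures. The p-values thus reflect only how far these arrays scatter, and part of that scatter may be technical. For the step, the scatter also holds differences between the courses of ATRA and BMS753, because these different agents stand in as repeats of each other.

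Retinoic acid is made from retinaldehyde by ALDH1A enzymes and destroyed by CYP26 enzymes. In the nucleus it binds receptor dimers of RAR and RXR that sit on paired hexamers of DNA, and it switches on genes such as Cyp26a1, Rarb and the 3' Hox genes. In P19 cells it ends the pluripotent state, and monolayer cultures are known to give mesenchymal, muscle and endoderm-like cells, while aggregated cultures give many neurons. The comparison of 72 h with 48 h asks which genes were still moving late in that process.

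The values are log2 intensities of the brightest probe set of each of 19938 named genes. A step is the log2 value at 72 h minus that at 48 h, so a step of 1 is a 2-fold rise. Steps were fitted with limma in 1 fit of all 24 arrays, in which the agents of 1 dose repeat each other at each time, and calls were made at an adjusted p (Benjamini-Hochberg) below 0.05. The median residual standard deviation was 0.12 over the 1 µM arrays, 0.061 over the 0.1 µM arrays and 0.066 over the EtOH arrays, so the pooled spread behind each call was lower than that of the 1 µM arrays alone. The array medians lay between 6.53 and 6.68 over the 4 arrays, with ATRA at 72 h the highest of all 24.

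From 48 to 72 h, 441 genes rose and 392 fell over both agents. These 833 called genes are 4.18% of the genes tested, 2.21% higher and 1.97% lower. A change of at least 2-fold was seen in 125 of them, 81 higher and 44 lower. Among the genes named by rule, the largest rise was in Aldh1a2, which makes retinoic acid, and the largest fall was in Pou5f1 (Oct4), a core pluripotency factor. All 833 called genes moved the same way with both agents, against 10796 of all genes, and 243 moved by at least 0.5 log2 units with each agent. The shared direction follows largely from the fit, in which a difference between the agents adds to the spread of a gene. It is thus not a separate result. The number of calls depended on the arrays that set the spread. No gene was called in the 10 arrays of ATRA and BMS753 (1341 genes at an unadjusted p under 0.05) or in the 4 arrays alone (1169 genes), 91 were called without the 0.1 µM arrays, an alternative added after the spread was seen, and 4819 were called where only the EtOH arrays set the spread. Of the 105 genes with a called step that are described here by that step, 22 were also called without the 0.1 µM arrays: Aff2, Aldh1a2, Bmp4, Ccng2, Cdh1, Epcam, Erbb4, Esrp1, Glrb, Gng3, Lrp11, Msx2, Nkd1, Pdgfc, Pdgfrb, Plk2, Rbms3, Sesn1, Trabd2b, Twist1, Unc5c and Zscan10.

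ATRA moved more genes over this day than BMS753 did. With ATRA, 456 genes rose and 225 fell by at least 1 log2 unit, against 149 and 177 with BMS753, counted on single arrays with no test. The standard deviation of the step over all genes was 0.406 with ATRA and 0.291 with BMS753. Across genes, which are not independent replicates, the ATRA and BMS753 steps had a Pearson r of 0.183 and a Spearman rho of 0.144. The ATRA step was the larger in 313 of the 441 genes that rose and in 237 of the 392 that fell.

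**Figure D1:**
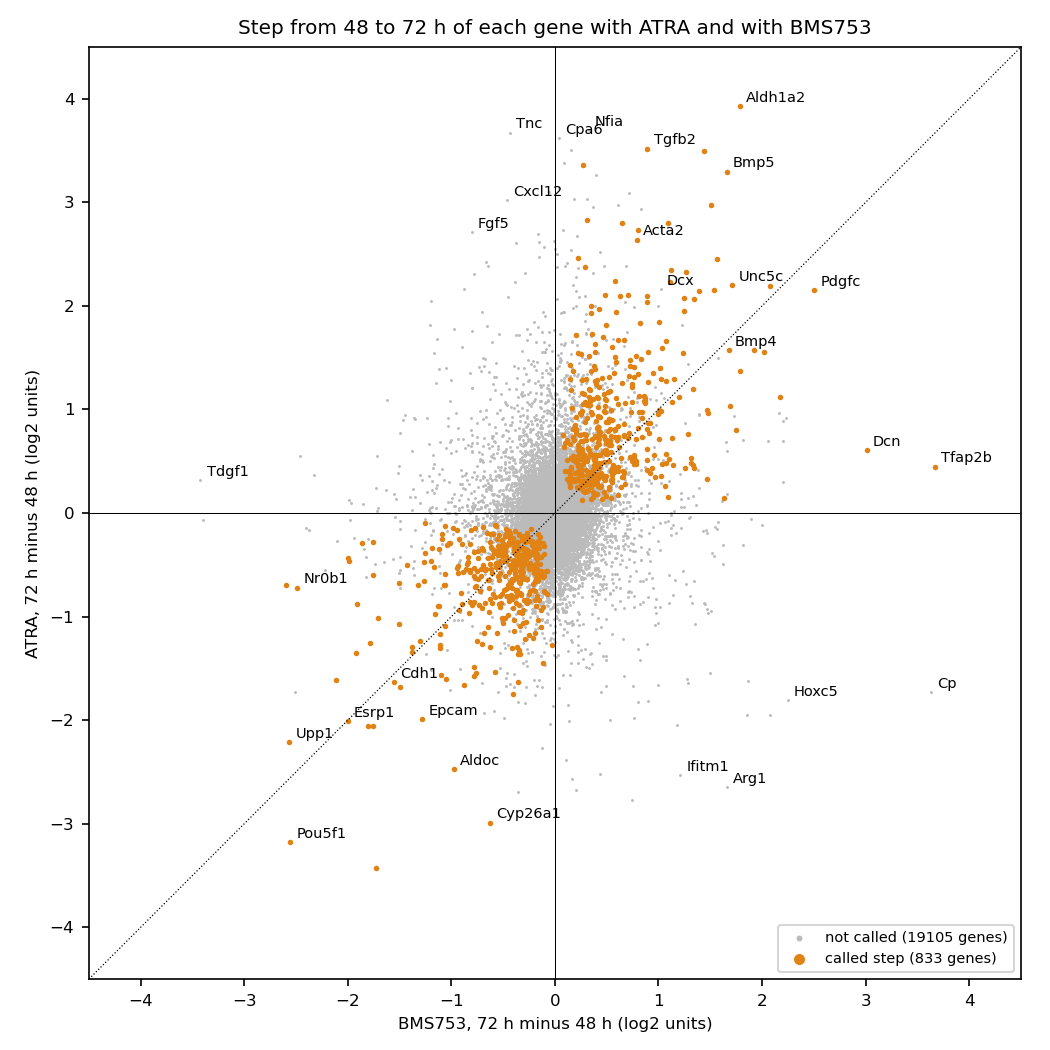
Step from 48 to 72 h of 19938 genes, with BMS753 on the x axis and ATRA on the y axis, both in log2 units, 1 array per agent and time. Orange points are the 833 called genes, which lie where both agents share a direction, and the dotted line marks equal steps. Genes such as Tnc, Cp and Tdgf1 lie far from that line.

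Most called genes ended the day beyond the EtOH arrays, which carry no time. The same counts were not made over all genes, so they do not show how far the called genes stand apart. The genes were chosen for a step that has the same direction with both agents. The shift of the counts from 48 to 72 h thus follows from that choice and is not a separate result. Of the 441 that rose, both arrays at 72 h lay above all 4 EtOH arrays in 398 genes, against 253 for both arrays at 48 h. Of the 392 that fell, both arrays at 72 h lay below all EtOH arrays in 352, against 239 for both arrays at 48 h. Only 11 of the genes that rose stayed below all EtOH arrays in both arrays at 72 h, against 60 at 48 h, and 6 of those that fell stayed above them, against 53 at 48 h.

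Acta2, Aldh1a2, Dcx and Aldoc were the marker genes of the step. Acta2, the actin of smooth muscle cells, read 12.23 with ATRA and 9.62 with BMS753 at 72 h, against 9.59 with ATRA and 8.83 with BMS753 at 48 h. The step was 1.72 ± 0.42 (SE), adjusted p = 0.0338, a 3.29-fold rise, and all 4 arrays lay above the EtOH range of 8.24 to 8.60. The rise was seen with both agents, by 2.64 with ATRA and 0.79 with BMS753, and the ATRA array at 72 h stood far above the other 3. The call was lost without EtOH replicate 1, 3 or 4 in turn. Dcx, a microtubule protein of young migrating neurons, read 10.13 with ATRA and 6.59 with BMS753 at 72 h, against 7.96 with ATRA and 5.57 with BMS753 at 48 h. Its step of 1.59 ± 0.62 (SE), adjusted p = 0.158 was not called, although both agents were higher at 72 h. Aldoc, a brain-type aldolase of glycolysis that also marks astroglia, read 7.87 with ATRA and 10.51 with BMS753 at 72 h, against 10.34 with ATRA and 11.49 with BMS753 at 48 h. It fell with both agents, with steps of -2.47 with ATRA and -0.98 with BMS753, and the fitted step was -1.72 ± 0.44 (SE), adjusted p = 0.0404. Its BMS753 array at 72 h lay above its ATRA array at 48 h, and its call was lost without each of the 4 EtOH arrays in turn.

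**Figure D2:**
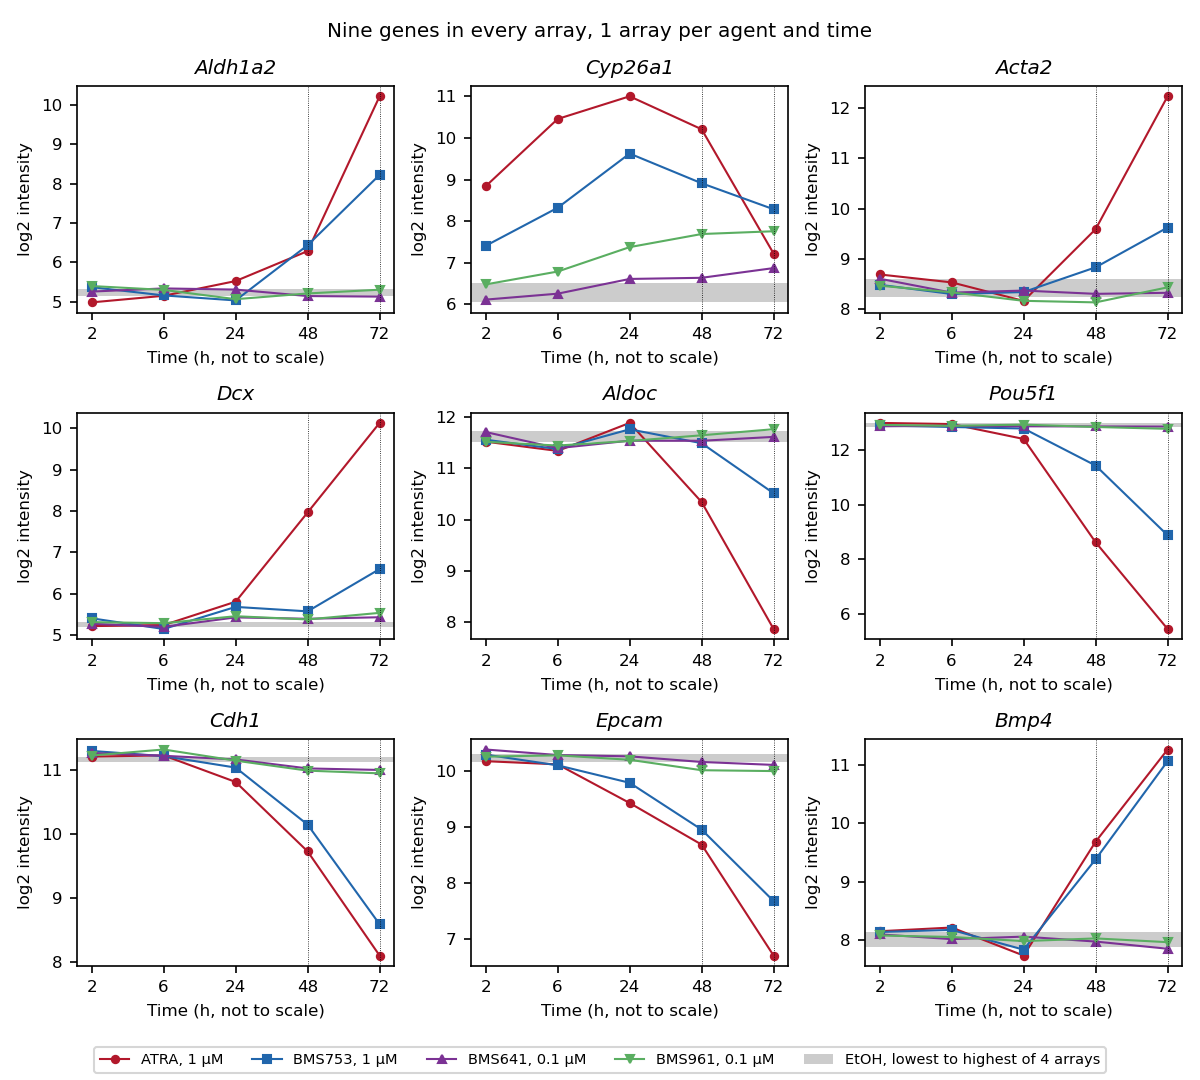
Log2 intensity of 9 genes at 2, 6, 24, 48 and 72 h, 1 array per agent and time, with the range of the 4 EtOH arrays as a grey band. Between the dotted lines at 48 and 72 h the ATRA and BMS753 lines diverge from the band for Aldh1a2, Acta2, Cdh1, Epcam and Bmp4, and the BMS641 and BMS961 lines stay close to it except for Cyp26a1.

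Aldh1a2, which makes retinoic acid, rose and Cyp26a1, which destroys it, fell, while other enzymes of both kinds were not called. Aldh1a2 (Raldh2), the main retinoic acid synthase of the embryo's mesoderm, read 10.21 with ATRA and 8.22 with BMS753 at 72 h, against 6.28 with ATRA and 6.43 with BMS753 at 48 h. The groups did not overlap, and the EtOH arrays lay lower still, at 5.14 to 5.31. The step was 2.86 ± 0.36 (SE), adjusted p = 0.000728, a 7.25-fold rise, and it was 3.93 with ATRA and 1.79 with BMS753. Cyp26a1, the hydroxylase that clears retinoic acid and a textbook direct target of it, read 7.22 with ATRA and 8.29 with BMS753 at 72 h, against 10.21 with ATRA and 8.91 with BMS753 at 48 h. Its steps were -2.99 with ATRA and -0.62 with BMS753, and the call of -1.81 ± 0.47 (SE), adjusted p = 0.0452 was lost without each EtOH array in turn. All 4 arrays remained above the EtOH range of 6.05 to 6.50, and at 24 h the gene had read 11.00 with ATRA and 9.63 with BMS753.

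The promoter of Cyp26a1 is shown because it carries a pair of receptor hexamers. The sequence is the 250 bases before the annotated start in RefSeq (GRCm38.p6, chr19:37697558-37697807, + strand), and the capitals mark a direct repeat of AGTTCA with 5 bases between, read on the opposite strand, at bases -32 to -16 from the start.
Cyp26a1: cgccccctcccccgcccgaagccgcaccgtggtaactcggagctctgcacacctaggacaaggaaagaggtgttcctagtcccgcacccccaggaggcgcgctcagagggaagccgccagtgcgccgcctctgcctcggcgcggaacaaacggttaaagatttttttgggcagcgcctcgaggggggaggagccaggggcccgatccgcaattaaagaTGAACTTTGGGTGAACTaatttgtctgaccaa
This exact repeat, searched on both strands, was present in 7 of 27025 genes with a promoter sequence (0.0259%). The letters searched are those of the Cyp26a1 repeat itself, and other forms of the hexamer were not searched. The low share thus does not tell how common receptor hexamers are. Of 16 receptor, clearance and early target genes with a sequence, 1 held it. The search was added after the values were seen, and a match is a description of letters, not a measured site.

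Of the 10 measured genes of retinoid synthesis, uptake and binding, 1 rose (Aldh1a2) and none fell, and of the 18 receptor, clearance and early target genes 2 fell (Cyp26a1 and Rarg) and none rose. Over all genes 2.21% were called higher and 1.97% lower, which is the share to set beside this and every later list. Rarg, the γ receptor itself, read 7.22 with ATRA and 7.40 with BMS753 at 72 h, against 7.69 with ATRA and 8.60 with BMS753 at 48 h. Its step was -0.83 ± 0.13 (SE), adjusted p = 0.00294, and both arrays at 72 h lay below both at 48 h. Aldh1a1 and Aldh1a3, which also make retinoic acid, had steps of 0.17 ± 0.19 (SE), adjusted p = 0.678 for Aldh1a1 and -0.00 ± 0.09 (SE), adjusted p = 0.987 for Aldh1a3, and Cyp26b1, which also destroys it, had one of 0.51 ± 0.45 (SE), adjusted p = 0.574. The list medians were 0.04 for the first list and 0.02 for the second, beside 0.01 over all genes.

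**Figure D3:**
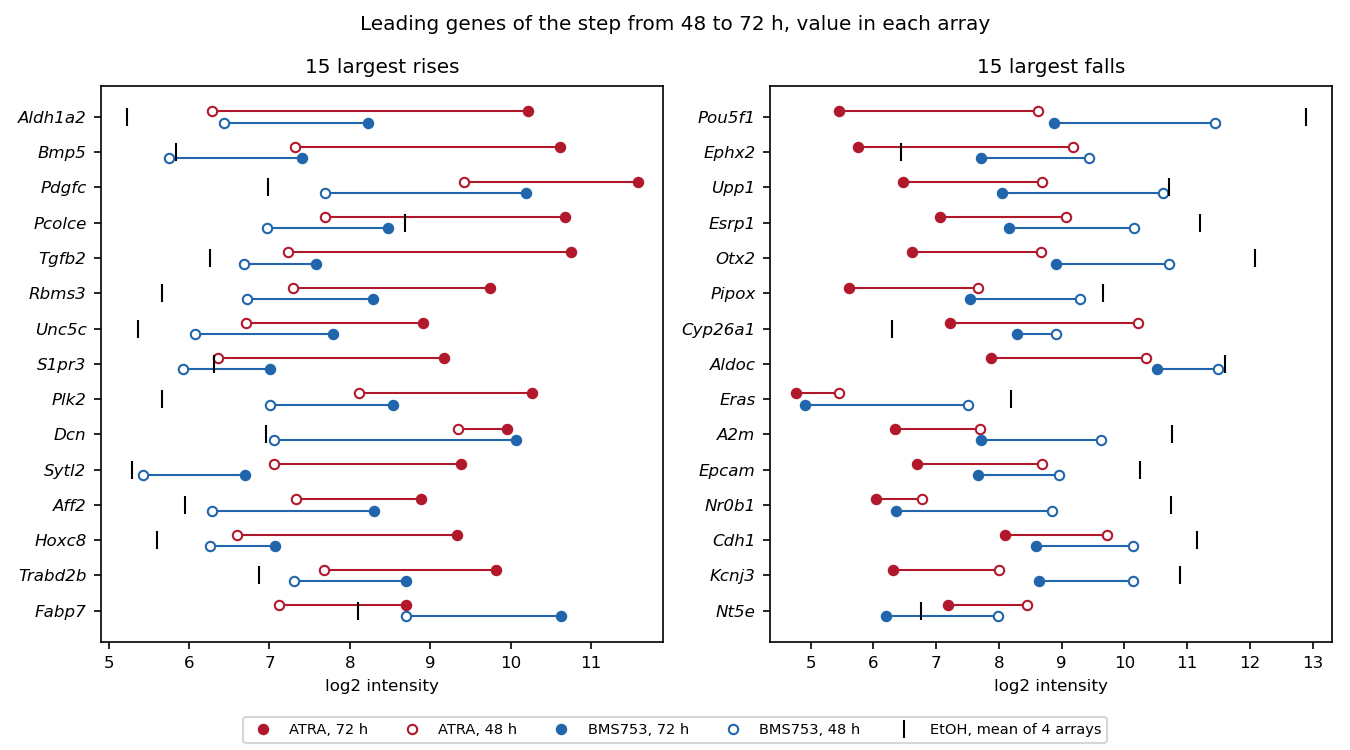
Log2 intensity of the 15 genes with the largest called rises and the 15 with the largest called falls in each of the 4 arrays, with filled circles for 72 h, open circles for 48 h and a black tick for the mean of the 4 EtOH arrays. Each line joins the arrays of 1 agent, and all lines run right to 72 h in the left panel and left to 72 h in the right panel.

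Cdh1, Esrp1 and Epcam, which are known from epithelial cells, fell with both agents, while the epithelial keratin Krt18 rose, as described with the endoderm list. Cdh1 (E-cadherin), which holds epithelial cells together, read 8.10 with ATRA and 8.59 with BMS753 at 72 h, against 9.73 with ATRA and 10.14 with BMS753 at 48 h. The step was -1.59 ± 0.09 (SE), adjusted p = 5.33e-07, and the groups did not overlap. Esrp1, a splicing regulator of epithelial cells, read 7.06 with ATRA and 8.16 with BMS753 at 72 h, against 9.07 with ATRA and 10.16 with BMS753 at 48 h. Its step was -2.01 ± 0.20 (SE), adjusted p = 8.14e-05, with -2.01 with ATRA and -2.0 with BMS753. Epcam, an epithelial surface protein, read 6.69 with ATRA and 7.67 with BMS753 at 72 h, against 8.68 with ATRA and 8.95 with BMS753 at 48 h. Its steps were -1.99 with ATRA and -1.28 with BMS753, and the fitted step was -1.64 ± 0.15 (SE), adjusted p = 4.25e-05. All 3 genes already lay below every EtOH array at 48 h with both agents.

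Snai2 and Twist1, which are known to repress Cdh1, rose, and Snai1, which is known for the same, was not called. Snai2 (Slug), a zinc-finger repressor that binds E-boxes, read 8.68 with ATRA and 7.08 with BMS753 at 72 h, against 6.45 with ATRA and 5.97 with BMS753 at 48 h. The step was 1.67 ± 0.29 (SE), adjusted p = 0.00625, a 3.19-fold rise. Twist1, a basic helix-loop-helix factor of mesenchyme, read 7.66 with ATRA and 8.47 with BMS753 at 72 h, against 6.70 with ATRA and 7.00 with BMS753 at 48 h. Its step was 1.22 ± 0.15 (SE), adjusted p = 0.000631, and no array at 72 h overlapped those at 48 h. Vim (vimentin), the intermediate filament of mesenchymal cells, rose by 0.50 with ATRA and 0.52 with BMS753, a step of 0.51 ± 0.12 (SE), adjusted p = 0.0324. Snai1 moved by 0.48 with ATRA and -0.39 with BMS753, a step of 0.05 ± 0.15 (SE), adjusted p = 0.9.

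The Epcam promoter is shown for its E-boxes of the form CAGGTG, the letters that SNAI repressors are known to bind. These are the 250 bases before the RefSeq start (GRCm38.p6, chr17:87635729-87635978, + strand), with the matches on either strand in capitals at bases -187 to -182 and -19 to -14.
Epcam: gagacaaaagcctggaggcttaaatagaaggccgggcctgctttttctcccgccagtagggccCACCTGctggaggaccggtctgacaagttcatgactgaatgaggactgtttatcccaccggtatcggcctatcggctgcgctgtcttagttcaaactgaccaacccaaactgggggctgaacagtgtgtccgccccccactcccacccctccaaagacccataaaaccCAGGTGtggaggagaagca
This hexamer was present in 19.4% of promoters of the same length, so it is common, and it was searched after the values were seen.

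Some pluripotency genes continued to fall, and most of the list was not called. Of 34 measured genes, 6 fell (Pou5f1, Otx2, Nr0b1, Dnmt3b, L1td1 and Sall4) and 1 rose (Tbx3), with a list median of -0.17. Pou5f1 read 5.45 with ATRA and 8.88 with BMS753 at 72 h, against 8.63 with ATRA and 11.44 with BMS753 at 48 h. It was near 12.90 in the EtOH arrays, and its step was -2.86 ± 0.63 (SE), adjusted p = 0.021, with -3.17 with ATRA and -2.55 with BMS753. The BMS753 array at 72 h still lay above the ATRA array at 48 h, so the fall is seen within each agent and the groups overlap. Otx2, a homeobox factor of primed pluripotent cells and forebrain, read 6.62 with ATRA and 8.91 with BMS753 at 72 h, against 8.67 with ATRA and 10.71 with BMS753 at 48 h. Its step was -1.93 ± 0.38 (SE), adjusted p = 0.0116, with the same overlap between agents. Nr0b1 (Dax1), a nuclear receptor that works with Oct4, read 6.05 with ATRA and 6.36 with BMS753 at 72 h, against 6.77 with ATRA and 8.85 with BMS753 at 48 h. Its step was -1.60 ± 0.38 (SE), adjusted p = 0.0294, and it was -0.72 with ATRA and -2.49 with BMS753.

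Further members of the pluripotency list fell by over 1 log2 unit. Dnmt3b, the de novo DNA methyltransferase of early embryos, had a step of -1.29 ± 0.31 (SE), adjusted p = 0.0346. L1td1, an RNA-binding protein of pluripotent cells, had a step of -1.22 ± 0.27 (SE), adjusted p = 0.0225. Sall4, a zinc-finger partner of Oct4, had a step of -1.13 ± 0.28 (SE), adjusted p = 0.0372, and the calls of Dnmt3b and Sall4 were lost without each EtOH array in turn. Tbx3, a T-box factor active both in naive pluripotency and in mesoderm and endoderm, was the member that rose, by 1.15 with ATRA and 0.47 with BMS753, with a step of 0.81 ± 0.20 (SE), adjusted p = 0.0348 that was lost without EtOH replicate 1, 3 or 4.

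The markers Nanog, Utf1 and Tdgf1 were not called. At 48 h each of them was lower with ATRA than with BMS753. Nanog read 6.01 with ATRA and 7.23 with BMS753 at 72 h, against 5.46 with ATRA and 8.95 with BMS753 at 48 h, and its step was -0.58 ± 0.61 (SE), adjusted p = 0.656. Utf1 read 6.10 with ATRA and 7.86 with BMS753 at 72 h, against 6.24 with ATRA and 10.26 with BMS753 at 48 h, and its step was -1.27 ± 0.62 (SE), adjusted p = 0.265. Tdgf1 (Cripto), a Nodal co-receptor, read 5.32 with ATRA and 5.77 with BMS753 at 72 h, against 5.00 with ATRA and 9.19 with BMS753 at 48 h, and its step was -1.55 ± 0.69 (SE), adjusted p = 0.215. In all 3 the BMS753 array was lower at 72 h, while the ATRA array differed by 0.55 log2 units or less.

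Other genes that fell are known from embryonic stem cells or from metabolism. Eras, a Ras protein of embryonic stem cells, read 4.76 with ATRA and 4.92 with BMS753 at 72 h, against 5.46 with ATRA and 7.51 with BMS753 at 48 h, a step of -1.64 ± 0.38 (SE), adjusted p = 0.0268. Zscan10, a zinc-finger factor of pluripotent cells, read 6.80 with ATRA and 7.94 with BMS753 at 72 h, against 8.14 with ATRA and 9.32 with BMS753 at 48 h, a step of -1.36 ± 0.19 (SE), adjusted p = 0.00166. The groups did not overlap in either gene. Upp1, uridine phosphorylase, read 6.48 with ATRA and 8.05 with BMS753 at 72 h, against 8.69 with ATRA and 10.61 with BMS753 at 48 h. Ephx2, the soluble epoxide hydrolase, read 5.75 with ATRA and 7.71 with BMS753 at 72 h, against 9.18 with ATRA and 9.44 with BMS753 at 48 h. Both fell, with steps of -2.39 ± 0.43 (SE), adjusted p = 0.00706 for Upp1 and -2.58 ± 0.60 (SE), adjusted p = 0.0284 for Ephx2, but only Ephx2 had stood above the EtOH arrays at 48 h.

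The rest of the 15 largest falls were in enzymes, an inhibitor and a channel. Pipox, a peroxisomal sarcosine oxidase, had a step of -1.91 ± 0.37 (SE), adjusted p = 0.0107. A2m, the protease inhibitor α2-macroglobulin, had a step of -1.64 ± 0.35 (SE), adjusted p = 0.0193. Kcnj3, a potassium channel gated by G proteins, had a step of -1.59 ± 0.38 (SE), adjusted p = 0.0325, and both its ATRA arrays lay below both its BMS753 arrays. Nt5e (CD73), which makes adenosine at the cell surface, read 7.19 with ATRA and 6.20 with BMS753 at 72 h, against 8.45 with ATRA and 7.99 with BMS753 at 48 h, a step of -1.52 ± 0.25 (SE), adjusted p = 0.00435. Nt5e was above its EtOH range of 6.62 to 6.86 in both arrays at 48 h, and at 72 h with ATRA only.

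Ligands of the BMP and TGFβ families were among the rises. Of 29 measured genes of the families and their Id targets, 3 rose (Bmp4, Tgfb2 and Bmp5) and none fell, with a list median of 0.25. Bmp4, a ligand that patterns mesoderm and ectoderm, read 11.26 with ATRA and 11.07 with BMS753 at 72 h, against 9.69 with ATRA and 9.39 with BMS753 at 48 h. The step was 1.63 ± 0.10 (SE), adjusted p = 5.33e-07, and the agents moved alike, with 1.58 with ATRA and 1.68 with BMS753. Bmp5 read 10.61 with ATRA and 7.40 with BMS753 at 72 h, against 7.31 with ATRA and 5.75 with BMS753 at 48 h. Its step was 2.48 ± 0.60 (SE), adjusted p = 0.0329, lost without EtOH replicate 4, and with BMS753 it stood above the EtOH range of 5.76 to 5.97 at 72 h but within 0.02 log2 units of its lower end at 48 h. Tgfb2 read 10.74 with ATRA and 7.58 with BMS753 at 72 h, against 7.22 with ATRA and 6.69 with BMS753 at 48 h. Its step was 2.21 ± 0.52 (SE), adjusted p = 0.0306, and most of it was in the ATRA array, 3.52 with ATRA and 0.89 with BMS753.

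Pdgfc, Pdgfrb, Dcn and Pcolce, which mesenchymal cells are known to use for growth signals and matrix, also rose. Pdgfc, a platelet-derived growth factor, read 11.58 with ATRA and 10.20 with BMS753 at 72 h, against 9.42 with ATRA and 7.69 with BMS753 at 48 h. Its step was 2.33 ± 0.36 (SE), adjusted p = 0.00271, a 5.03-fold rise. Pdgfrb, a receptor of that family on fibroblasts and pericytes, read 7.62 with ATRA and 7.25 with BMS753 at 72 h, against 6.72 with ATRA and 6.73 with BMS753 at 48 h, a step of 0.71 ± 0.12 (SE), adjusted p = 0.00468. Neither gene's groups overlapped, and both were among the calls that held without the 0.1 µM arrays. Dcn (decorin), a small proteoglycan that binds collagen, read 9.95 with ATRA and 10.07 with BMS753 at 72 h, against 9.34 with ATRA and 7.06 with BMS753 at 48 h. Here the larger step was with BMS753, 0.61 with ATRA and 3.01 with BMS753, and the step was 1.81 ± 0.41 (SE), adjusted p = 0.0258. Pcolce, which speeds the maturation of procollagen, read 10.67 with ATRA and 8.47 with BMS753 at 72 h, against 7.70 with ATRA and 6.97 with BMS753 at 48 h. Its step was 2.24 ± 0.41 (SE), adjusted p = 0.00766, but against an EtOH range of 8.65 to 8.74 the BMS753 array at 72 h was still lower than the controls.

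Of 28 measured genes of fibrillar collagen and mesenchymal matrix, 5 rose (Col1a2, Pdgfrb, Col5a2, Thbs1 and Dcn) and none fell. The list median of 0.53 lay above the 0.01 of all genes, and by agent the medians were 0.52 with ATRA and 0.09 with BMS753. Thbs1 (thrombospondin 1), an activator of latent TGFβ, had a step of 1.49 ± 0.30 (SE), adjusted p = 0.0146. Col1a2 and Col5a2, chains of the fibrillar collagens I and V, had steps of 0.65 ± 0.12 (SE), adjusted p = 0.00943 for Col1a2 and 0.85 ± 0.17 (SE), adjusted p = 0.0131 for Col5a2. The rise of Col1a2 was present in both agents, 0.53 with ATRA and 0.76 with BMS753. In these whole cultures a change in the number of cells of 1 type and a change in RNA per cell cannot be told apart, here and for every gene below.

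Contractile genes had a higher median step with ATRA than with BMS753. Of 28 measured genes, 2 were called higher over both agents (Myl9 and Acta2) and none lower, with a list median of 0.19, 0.47 with ATRA and 0.01 with BMS753. Myl9, the light chain of smooth muscle myosin, read 10.40 with ATRA and 8.81 with BMS753 at 72 h, against 8.84 with ATRA and 7.91 with BMS753 at 48 h. Its step was 1.23 ± 0.26 (SE), adjusted p = 0.0192, and its BMS753 array at 72 h lay just under its ATRA array at 48 h. Tagln (SM22), an actin-binding protein of smooth muscle, read 10.03 with ATRA and 7.98 with BMS753 at 72 h, against 8.11 with ATRA and 7.68 with BMS753 at 48 h, and its step of 1.11 ± 0.34 (SE), adjusted p = 0.0767 was not called. Cnn1 (calponin), a marker of mature smooth muscle, moved by 1.78 with ATRA and -0.27 with BMS753, also not called.

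The promoter of Acta2 is shown because serum response factor binds CArG boxes in contractile genes. The 250 bases before the RefSeq start (GRCm38.p6, chr19:34255374-34255623, - strand) hold 2 matches, in capitals, at bases -84 to -75 and -34 to -25, when 1 of the 6 inner A or T letters may be another base.
Acta2: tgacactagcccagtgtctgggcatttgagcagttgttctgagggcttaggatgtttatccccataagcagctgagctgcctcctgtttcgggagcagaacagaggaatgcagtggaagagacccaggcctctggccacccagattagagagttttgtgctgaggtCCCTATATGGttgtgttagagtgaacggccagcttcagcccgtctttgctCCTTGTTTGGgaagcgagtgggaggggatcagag
Such a match was present in 9 of 24 contractile genes with a sequence (37.5%), beside 9.78% of 27025 genes with a promoter of this length.

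Neural crest genes had the largest share of rises among the lists of cell types. Of 19 measured genes, 7 rose and none fell, with a median of 0.29. Besides Snai2 and Twist1 these were Msx2, Prrx1, Ets1, Tfap2a and Tfap2b. Msx2, a homeobox target of BMP signals, read 8.56 with ATRA and 8.63 with BMS753 at 72 h, against 7.27 with ATRA and 7.48 with BMS753 at 48 h. Its step was 1.22 ± 0.08 (SE), adjusted p = 1.42e-06, and the agents moved alike, 1.29 with ATRA and 1.15 with BMS753. Prrx1, a homeobox factor of mesenchyme, read 8.63 with ATRA and 7.24 with BMS753 at 72 h, against 6.55 with ATRA and 5.99 with BMS753 at 48 h, a step of 1.66 ± 0.31 (SE), adjusted p = 0.0091. Tfap2b, an AP-2 factor of crest and sympathetic neurons, read 6.63 with ATRA and 9.85 with BMS753 at 72 h, against 6.18 with ATRA and 6.18 with BMS753 at 48 h. Nearly all of its rise was in 1 array, BMS753 at 72 h, and the step of 2.06 ± 0.53 (SE), adjusted p = 0.0411 was lost without each EtOH array. Tfap2a, a related AP-2 factor, had a step of 0.66 ± 0.14 (SE), adjusted p = 0.0193, and Ets1, an ETS factor of crest and endothelium, one of 0.83 ± 0.18 (SE), adjusted p = 0.0212.

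Calls among neuronal genes were spread over 3 lists. Of 33 proneural and neuronal transcription factors, 4 rose (Neurod4, Onecut1, Neurog1 and Nhlh1) and none fell, 12.1% higher beside 2.21% of all genes. Nhlh1, a helix-loop-helix factor of newborn neurons, read 7.48 with ATRA and 5.68 with BMS753 at 72 h, against 5.44 with ATRA and 4.79 with BMS753 at 48 h, a step of 1.46 ± 0.29 (SE), adjusted p = 0.0131. Neurog1 (neurogenin 1), a proneural factor of sensory precursors, read 7.21 with ATRA and 7.36 with BMS753 at 72 h, against 6.75 with ATRA and 6.22 with BMS753 at 48 h, a step of 0.80 ± 0.14 (SE), adjusted p = 0.00522. In Nhlh1 the ATRA step was the larger and in Neurog1 the BMS753 step was. Onecut1 had a step of 0.60 ± 0.15 (SE), adjusted p = 0.0321 and Neurod4 one of 0.60 ± 0.16 (SE), adjusted p = 0.0438, and the call of Neurod4 was lost without each EtOH array.

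Of 28 genes of the neuronal cytoskeleton and growth cone, 2 rose (Map2 and Elavl4) and 1 fell (Prph). Map2, the dendritic microtubule protein, read 10.53 with ATRA and 9.23 with BMS753 at 72 h, against 9.28 with ATRA and 8.49 with BMS753 at 48 h, a step of 0.99 ± 0.24 (SE), adjusted p = 0.0324, and its BMS753 array at 72 h lay just under its ATRA array at 48 h. Elavl4 (HuD), an RNA-binding protein of neurons, read 7.10 with ATRA and 6.31 with BMS753 at 72 h, against 5.99 with ATRA and 5.72 with BMS753 at 48 h, a step of 0.85 ± 0.15 (SE), adjusted p = 0.0054. Prph (peripherin), a filament of peripheral neurons, read 6.64 with ATRA and 7.25 with BMS753 at 72 h, against 7.23 with ATRA and 8.31 with BMS753 at 48 h, a step of -0.83 ± 0.21 (SE), adjusted p = 0.04 that was lost without each EtOH array. Of 26 synaptic genes, none rose and 1 fell, Slc18a3, the vesicular acetylcholine transporter, with a step of -0.65 ± 0.14 (SE), adjusted p = 0.0225. By agent the cytoskeleton list had a median of 0.48 with ATRA and -0.09 with BMS753, and the synaptic list 0.42 with ATRA and -0.02 with BMS753. The E-box CAGCTG, the form that proneural factors favour, was present on either strand in 4 of 27 proneural genes with a promoter sequence (14.8%), 3 of 17 cytoskeleton genes (17.6%) and 4 of 21 synaptic genes (19%), beside 14.7% of all.

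Neural progenitor genes were split. Of 38 measured genes, 2 rose (Fabp7 and Vim) and 1 fell (Sox3). By agent the list median was -0.23 with ATRA and 0.04 with BMS753. With ATRA 9 genes fell by at least 1 log2 unit and 2 rose, against 0 and 2 with BMS753. These counts rest on single arrays with no test. Fabp7, the fatty acid-binding protein of radial glia, read 8.70 with ATRA and 10.62 with BMS753 at 72 h, against 7.12 with ATRA and 8.70 with BMS753 at 48 h, a step of 1.75 ± 0.40 (SE), adjusted p = 0.0268. The ATRA array at 72 h equalled the BMS753 array at 48 h to within 0.01 log2 units, so the rise is visible only within each agent. Sox3, a SoxB1 factor of early neural tissue, read 8.39 with ATRA and 8.51 with BMS753 at 72 h, against 8.91 with ATRA and 9.05 with BMS753 at 48 h, a step of -0.53 ± 0.11 (SE), adjusted p = 0.0164.

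Some Hox genes of the trunk rose. Of 23 measured genes of paralogue groups 6 to 13, 4 rose (Hoxd9, Hoxa9, Hoxc9 and Hoxc8) and none fell. Hoxd8 and Hoxb9, of the same paralogue groups, were not called, with steps of 0.30 ± 0.22 (SE), adjusted p = 0.477 for Hoxd8 and 0.43 ± 0.31 (SE), adjusted p = 0.479 for Hoxb9. Hoxc8, a trunk Hox gene, read 9.33 with ATRA and 7.07 with BMS753 at 72 h, against 6.59 with ATRA and 6.26 with BMS753 at 48 h. The step was 1.77 ± 0.39 (SE), adjusted p = 0.0219, a 3.4-fold rise. Hoxc9 read 8.34 with ATRA and 6.58 with BMS753 at 72 h, against 6.24 with ATRA and 5.95 with BMS753 at 48 h, a step of 1.36 ± 0.29 (SE), adjusted p = 0.0193, and Hoxa9 had one of 0.89 ± 0.20 (SE), adjusted p = 0.0218. Both arrays at 72 h lay above both at 48 h in each of them, and Hoxd9 rose less, by 0.53 ± 0.12 (SE), adjusted p = 0.0259. Of 14 genes of paralogue groups 1 to 5, none was called, and the list median was 0.23, -0.29 with ATRA and 0.51 with BMS753.

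Lists of other cell types the cultures could hold gave 1 to 3 calls each. Of 29 genes of basement membrane and endoderm, 2 rose (Gata6 and Krt18) and 1 fell (Apoe). This was 6.9% higher and 3.45% lower, beside 2.21% and 1.97% of all genes. Gata6, a factor of endoderm and of cardiac and smooth muscle, read 11.49 with ATRA and 9.85 with BMS753 at 72 h, against 10.08 with ATRA and 9.08 with BMS753 at 48 h, a step of 1.09 ± 0.20 (SE), adjusted p = 0.0094. Krt18, a simple epithelial keratin, read 11.11 with ATRA and 10.36 with BMS753 at 72 h, against 10.16 with ATRA and 9.36 with BMS753 at 48 h, a step of 0.98 ± 0.16 (SE), adjusted p = 0.00439. Its partner keratin Krt8 moved by 1.40 with ATRA and 0.55 with BMS753, a step of 0.98 ± 0.29 (SE), adjusted p = 0.0723 that was not called. The groups did not overlap for Krt18, and for Gata6 the BMS753 array at 72 h lay below the ATRA array at 48 h. Apoe, an apolipoprotein of endoderm and liver, had a step of -0.96 ± 0.23 (SE), adjusted p = 0.0348, lost without EtOH replicate 1, 3 or 4. Of 26 mesoderm and cardiac factors 1 rose, Foxf1, a forkhead factor of lateral mesoderm, with a step of 0.61 ± 0.15 (SE), adjusted p = 0.0363 that was lost without EtOH replicate 2 or 4. Of 16 genes of endothelium and blood 1 fell, Tek, the angiopoietin receptor, with a step of -0.67 ± 0.14 (SE), adjusted p = 0.0193. Of 14 glial genes 1 fell, Aldoc, and of 13 trophoblast genes 1 rose, Igf2. The part of these lists in the other results was not tested.

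A few glucose metabolism genes passed the test. Of 19 measured genes of glycolysis and glucose uptake, 2 fell (Aldoc and Pfkm) and none rose, 10.5% lower beside 1.97% of all genes. At 72 h Eno2 and Pfkfb3 were higher with ATRA and Hk1 and Pfkfb4 with BMS753, none was higher with both agents, and none of these 4 was called. The list median was -0.53, the lowest of the 32 lists, with -0.72 for ATRA and -0.42 for BMS753. Pfkm, the muscle-type phosphofructokinase, read 9.22 with ATRA and 9.51 with BMS753 at 72 h, against 9.54 with ATRA and 10.06 with BMS753 at 48 h, a step of -0.44 ± 0.09 (SE), adjusted p = 0.0138. Pfkl, the liver-type enzyme, moved by -1.93 with ATRA and -0.68 with BMS753, a step of -1.31 ± 0.36 (SE), adjusted p = 0.0557 that was not called. The motif ACGTG, the core of hypoxia response elements, was present on either strand in 10 of 18 glycolysis promoters (55.6%) and 12 of 18 hypoxia response promoters (66.7%), beside 18.5% of all promoters. Of 21 hypoxia response genes, 1 rose and none fell, with a median of -0.12. That gene, Epas1 (HIF2α), had a step of 0.68 ± 0.15 (SE), adjusted p = 0.0221.

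The median step of cell cycle genes was near 0 over both agents. Of 47 measured genes, 3 rose (Ccnd1, Ccnd3 and Cdc25a) and 2 fell (Ccnb2 and Mcm2), with a median of -0.05. This was 6.38% higher and 4.26% lower, beside 2.21% and 1.97% of all genes. Ccnd1, the D-type cyclin of the G1 phase, read 9.51 with ATRA and 9.95 with BMS753 at 72 h, against 8.32 with ATRA and 9.62 with BMS753 at 48 h, a step of 0.76 ± 0.17 (SE), adjusted p = 0.0218. Ccnd3 had a step of 0.34 ± 0.07 (SE), adjusted p = 0.0131. The steps of Cdc25a, Ccnb2 and Mcm2 were under 0.33 log2 units, and their calls were lost without each EtOH array. Of 17 exit genes and inhibitors, Gas1 rose, with 0.90 ± 0.24 (SE), adjusted p = 0.0473, and Ccng2 fell, with -0.53 ± 0.14 (SE), adjusted p = 0.0495, and both calls were lost without each EtOH array. Of 18 p53 targets, 3 rose (Mdm2, Phlda3 and Plk2) and 1 fell (Sesn1). Plk2, a polo-like kinase, read 10.27 with ATRA and 8.54 with BMS753 at 72 h, against 8.12 with ATRA and 7.00 with BMS753 at 48 h, a step of 1.85 ± 0.24 (SE), adjusted p = 0.000877. Sesn1, a stress-induced inhibitor of mTOR signals, read 9.24 with ATRA and 9.62 with BMS753 at 72 h, against 9.93 with ATRA and 10.07 with BMS753 at 48 h, a step of -0.57 ± 0.07 (SE), adjusted p = 0.000728.

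Wnt and axon guidance genes had more rises than falls. Of 32 Wnt genes, 4 rose (Rspo3, Nkd1, Wnt4 and Wnt6) and 1 fell (Sfrp2), with a median of 0.27. Nkd1, an intracellular inhibitor induced by Wnt, read 9.05 with ATRA and 9.87 with BMS753 at 72 h, against 8.29 with ATRA and 8.58 with BMS753 at 48 h, a step of 1.03 ± 0.13 (SE), adjusted p = 0.000728. Rspo3, a secreted Wnt amplifier, read 9.05 with ATRA and 7.89 with BMS753 at 72 h, against 6.59 with ATRA and 7.67 with BMS753 at 48 h, a step of 1.34 ± 0.32 (SE), adjusted p = 0.0299, and its rise was in the ATRA array. Trabd2b (Tiki2), a protease that inactivates Wnt ligands, read 9.82 with ATRA and 8.70 with BMS753 at 72 h, against 7.68 with ATRA and 7.30 with BMS753 at 48 h, a step of 1.77 ± 0.22 (SE), adjusted p = 0.000728. Sfrp2, a secreted Wnt inhibitor, had a step of -0.41 ± 0.06 (SE), adjusted p = 0.003.

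Of 28 axon guidance genes, 4 rose (Unc5c, Nrp1, Sema3c and Robo3) and 1 fell (Sema4d). The other probe set of Sema4d did not fall, and moved by 0.08 with ATRA and 0.02 with BMS753. Unc5c, a repulsive netrin receptor, read 8.91 with ATRA and 7.78 with BMS753 at 72 h, against 6.71 with ATRA and 6.07 with BMS753 at 48 h, a step of 1.96 ± 0.30 (SE), adjusted p = 0.00232. Nrp1 (neuropilin 1), a receptor for semaphorins and VEGF, read 9.98 with ATRA and 7.53 with BMS753 at 72 h, against 7.91 with ATRA and 6.18 with BMS753 at 48 h, a step of 1.71 ± 0.43 (SE), adjusted p = 0.0404, with both ATRA arrays above both BMS753 arrays. Unc5c was called in every fit that left out an EtOH array, while Nrp1, Sema3c, Robo3 and Sema4d were lost in each of them. Of 21 genes of the Notch list, Hey2, a Notch target, and Mfap4, a microfibril protein, rose and Jag1 fell. This was 9.52% higher and 4.76% lower, beside 2.21% and 1.97% of all genes. Jag1, a Notch ligand, read 7.59 with ATRA and 8.41 with BMS753 at 72 h, against 8.08 with ATRA and 9.84 with BMS753 at 48 h, a step of -0.96 ± 0.24 (SE), adjusted p = 0.0361, lost without each EtOH array. Of 20 imprinted genes, Igf2, Igf2r and Plagl1 rose. Igf2, a fetal growth factor, read 12.92 with ATRA and 11.42 with BMS753 at 72 h, against 10.68 with ATRA and 10.84 with BMS753 at 48 h, a step of 1.41 ± 0.28 (SE), adjusted p = 0.0126, and Plagl1 (Zac1), a zinc-finger factor, had one of 0.76 ± 0.13 (SE), adjusted p = 0.0048.

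Some of the genes that rose lay outside these lists. Rbms3, an RNA-binding protein, read 9.74 with ATRA and 8.29 with BMS753 at 72 h, against 7.29 with ATRA and 6.72 with BMS753 at 48 h, a step of 2.01 ± 0.23 (SE), adjusted p = 0.000364. Aff2, a nuclear protein linked to fragile X E syndrome in humans, read 8.89 with ATRA and 8.30 with BMS753 at 72 h, against 7.33 with ATRA and 6.28 with BMS753 at 48 h, a step of 1.78 ± 0.17 (SE), adjusted p = 4.76e-05. The BMS753 step was the larger in Aff2 and the ATRA step in Rbms3. S1pr3, a receptor for sphingosine 1-phosphate, read 9.16 with ATRA and 7.01 with BMS753 at 72 h, against 6.37 with ATRA and 5.92 with BMS753 at 48 h, a step of 1.94 ± 0.38 (SE), adjusted p = 0.0117. Sytl2, a Rab27 effector in vesicle traffic, had a step of 1.80 ± 0.47 (SE), adjusted p = 0.0451, lost without each EtOH array. Erbb4, a neuregulin receptor, rose by 1.03 with ATRA and 1.69 with BMS753, a step of 1.36 ± 0.15 (SE), adjusted p = 0.000201, and Glrb, the β subunit of the glycine receptor, by 1.20 with ATRA and 1.33 with BMS753, a step of 1.26 ± 0.14 (SE), adjusted p = 0.00018.

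**Figure D4:**
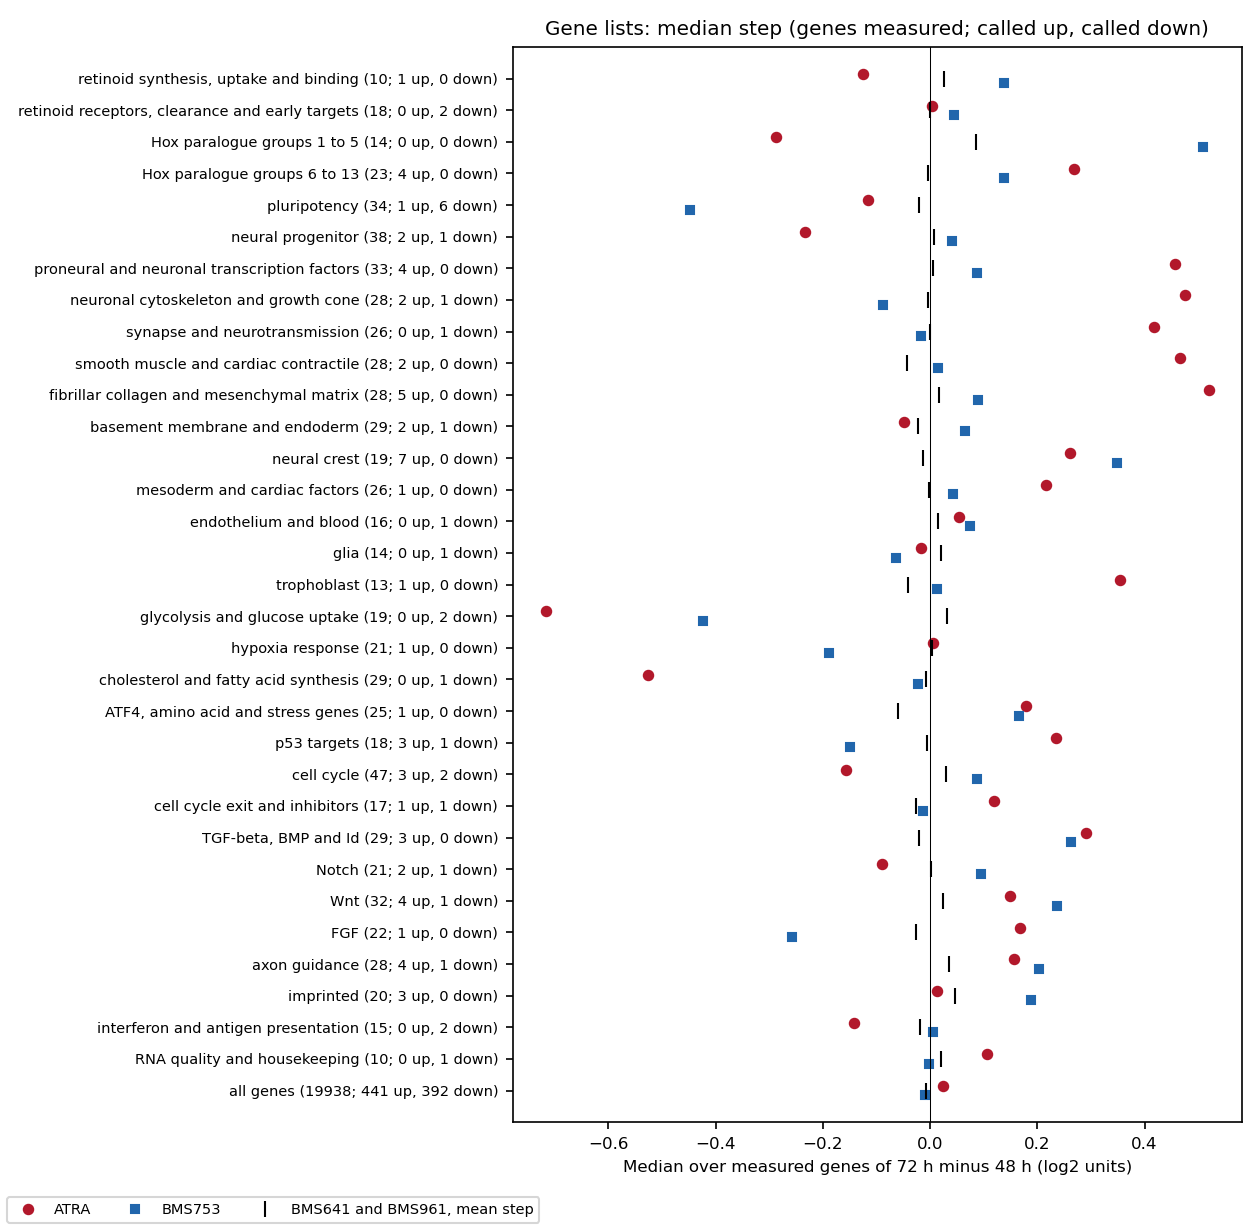
Median step from 48 to 72 h over the measured genes of each of 32 lists and of all genes, in log2 units, with circles for ATRA, squares for BMS753 and ticks for the mean step of BMS641 and BMS961. Numbers in brackets are genes measured and genes called higher and lower over ATRA and BMS753, and glycolysis has the lowest median with ATRA and pluripotency the lowest with BMS753.

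ATRA and BMS753 were the only pair of agents at 1 dose in this comparison, and their steps differed in many genes. The difference, ATRA step minus BMS753 step, was called in 3770 genes (18.9%), higher in 1998 (10.0%) and lower in 1772 (8.89%), with 856 differing by at least 2-fold. This test assumes that each lone array varies as the 4 EtOH arrays do, so it holds no repeat of either agent. The steps ran in opposite directions in 2438 of the 3770, and the ATRA step was the larger in 2758. Over all 19938 genes the agents shared a direction in 10796, and which step was larger was not counted. Steps of opposite sign widen the difference by which these genes were chosen, so the 2438 are not a separate result. Of the 833 genes with a called step over both agents, 295 also had a called difference.

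The largest positive differences were in genes of matrix, signalling and transcription. Tnc (tenascin C), a matrix glycoprotein of remodelling tissue, read 10.16 with ATRA and 7.39 with BMS753 at 72 h, against 6.49 with ATRA and 7.82 with BMS753 at 48 h. The difference of steps was 4.11 ± 0.21 (SE), adjusted p = 1.84e-08. Cxcl12, a chemokine that guides migrating cells, read 9.64 with ATRA and 6.49 with BMS753 at 72 h, against 6.61 with ATRA and 6.95 with BMS753 at 48 h, a difference of 3.49 ± 0.16 (SE), adjusted p = 8.45e-09. Fgf5, a fibroblast growth factor of the epiblast, read 10.04 with ATRA and 7.09 with BMS753 at 72 h, against 7.32 with ATRA and 7.90 with BMS753 at 48 h, a difference of 3.52 ± 0.15 (SE), adjusted p = 5.3e-09. With BMS753 each of these 3 genes was lower at 72 h than at 48 h. Nfia, a nuclear factor I protein of glial and neural development, read 9.47 with ATRA and 5.81 with BMS753 at 72 h, against 5.77 with ATRA and 5.48 with BMS753 at 48 h, a difference of 3.37 ± 0.17 (SE), adjusted p = 1.55e-08. Its other probe set moved by 1.82 with ATRA and 0.07 with BMS753. Cpa6, a secreted carboxypeptidase, read 8.06 with ATRA and 4.59 with BMS753 at 72 h, against 4.44 with ATRA and 4.55 with BMS753 at 48 h, a difference of 3.58 ± 0.13 (SE), adjusted p = 1.83e-09, and its ATRA array at 72 h stood far above the other 3. Tdgf1 also had a positive difference, 3.74 ± 0.12 (SE), adjusted p = 3.95e-10, and there the move was in the BMS753 arrays, which were lower at 72 h.

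The 6 genes with the largest negative differences were lower at 72 h with ATRA and higher with BMS753. Cp (ceruloplasmin), a copper-carrying ferroxidase, read 4.99 with ATRA and 9.60 with BMS753 at 72 h, against 6.72 with ATRA and 5.97 with BMS753 at 48 h, the largest difference of all named genes at -5.36 ± 0.17 (SE), adjusted p = 3.3e-10. Hoxc5 read 9.02 with ATRA and 10.67 with BMS753 at 72 h, against 10.83 with ATRA and 8.42 with BMS753 at 48 h, a difference of -4.06 ± 0.17 (SE), adjusted p = 5.3e-09. Arg1, arginase of the urea cycle, read 6.37 with ATRA and 7.84 with BMS753 at 72 h, against 9.02 with ATRA and 6.18 with BMS753 at 48 h, a difference of -4.31 ± 0.23 (SE), adjusted p = 2.66e-08. With ATRA, Cp was back near its EtOH range of 4.83 to 4.98 at 72 h, and Hoxc5 and Arg1 stayed above theirs. Cpm, a membrane carboxypeptidase, read 8.22 with ATRA and 8.53 with BMS753 at 72 h, against 10.17 with ATRA and 6.45 with BMS753 at 48 h, a difference of -4.03 ± 0.21 (SE), adjusted p = 2.12e-08. Gcnt4, a glycosyltransferase, read 5.90 with ATRA and 7.60 with BMS753 at 72 h, against 7.86 with ATRA and 5.74 with BMS753 at 48 h, a difference of -3.81 ± 0.17 (SE), adjusted p = 5.47e-09. Ifitm1, an interferon-induced membrane protein, read 9.39 with ATRA and 11.46 with BMS753 at 72 h, against 11.92 with ATRA and 10.25 with BMS753 at 48 h, a difference of -3.74 ± 0.12 (SE), adjusted p = 3.3e-10, and its other probe set moved the same way.

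**Figure D5:**
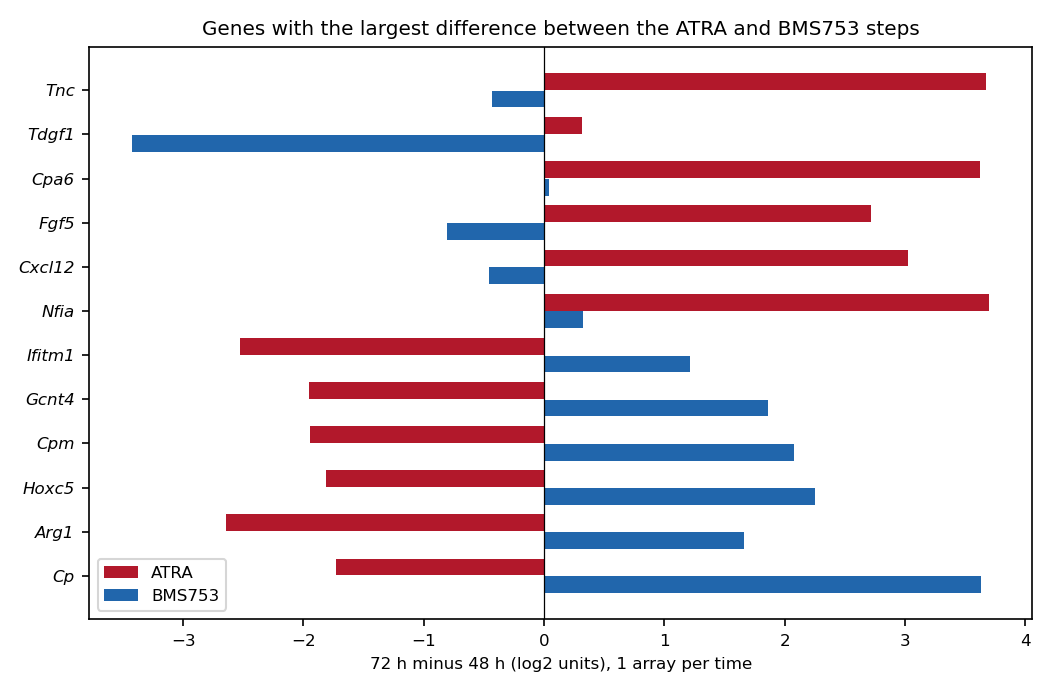
Step from 48 to 72 h in log2 units, 1 array per time, for the 6 genes with the largest positive and the 6 with the largest negative difference between ATRA (red) and BMS753 (blue). In the lower 6 genes the red and blue bars point in opposite directions.

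By role, the called differences were mostly positive in neuronal and contractile genes. Of 28 cytoskeleton genes, 17 had a higher step with ATRA and 2 a lower one, and of 26 synaptic genes 10 were higher and 1 lower. Over all genes 10.0% had a called higher step with ATRA and 8.89% a called lower one. Ina, a neurofilament subunit, moved by 1.39 with ATRA and -1.12 with BMS753, a difference of 2.51 ± 0.11 (SE), adjusted p = 5.3e-09. Elavl3 (HuC), an RNA-binding protein of neurons, moved by 2.10 with ATRA and 0.29 with BMS753, a difference of 1.81 ± 0.14 (SE), adjusted p = 9.05e-07. Snap25, a SNARE of synaptic vesicle release, moved by 1.80 with ATRA and -0.66 with BMS753, a difference of 2.46 ± 0.13 (SE), adjusted p = 2.66e-08. Neurod1, a neuronal differentiation factor, moved by 2.04 with ATRA and 0.68 with BMS753, a difference of 1.36 ± 0.14 (SE), adjusted p = 7.77e-06. Of 28 contractile genes, 15 were higher and 1 was lower, among them Cnn1 with a difference of 2.05 ± 0.16 (SE), adjusted p = 7e-07, Tagln with 1.62 ± 0.16 (SE), adjusted p = 7.36e-06 and Actc1, cardiac α-actin, with 2.00 ± 0.13 (SE), adjusted p = 1.71e-07. Nefl, another neurofilament subunit, differed by 1.90, and Syt1, a calcium sensor of synaptic vesicles, by 1.50. Timp3, an inhibitor of matrix proteases, differed by 2.36 and Postn (periostin), a matrix protein of fibroblasts, by 2.08.

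Of 22 FGF genes, 13 had a called higher step with ATRA and 2 a lower one, beside 10.0% and 8.89% of all genes. Spry4 and Spry2, feedback inhibitors of FGF signals, moved by 0.60 with ATRA and -1.38 with BMS753 for Spry4 and by 0.66 with ATRA and -1.21 with BMS753 for Spry2. The difference was 1.98 ± 0.11 (SE), adjusted p = 4.99e-08, for Spry4 and 1.88 ± 0.18 (SE), adjusted p = 4.09e-06, for Spry2. Both were higher at 72 h with ATRA and lower with BMS753.

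The called differences were mostly negative in neural progenitor genes, in sterol synthesis and in the cell cycle. Of 38 neural progenitor genes, 1 had a higher step with ATRA and 16 had a lower one, beside 10.0% and 8.89% of all genes. Of 29 genes of cholesterol and fatty acid synthesis, none had a higher step with ATRA and 23 had a lower one, beside 10.0% and 8.89% of all genes. Idi1, isopentenyl diphosphate isomerase, moved by -0.96 with ATRA and 0.08 with BMS753, a difference of -1.04 ± 0.11 (SE), adjusted p = 1.48e-05. Mvd, mevalonate diphosphate decarboxylase, moved by -0.94 with ATRA and 0.03 with BMS753, a difference of -0.98 ± 0.12 (SE), adjusted p = 5.11e-05. Over both agents 1 gene of the list fell, the fatty acid elongase Elovl6, with a step of -0.18 ± 0.04 (SE), adjusted p = 0.0347, lost without EtOH replicate 3. Of 47 cell cycle genes, 2 were higher and 21 lower, beside the same 10.0% and 8.89% of all genes. Ccnd2, a D-type cyclin, moved by -0.72 with ATRA and 0.49 with BMS753, a difference of -1.21 ± 0.12 (SE), adjusted p = 6.59e-06, and Birc5 (survivin), which acts in mitosis, moved by -0.75 with ATRA and 0.07 with BMS753, a difference of -0.81 ± 0.13 (SE), adjusted p = 0.000486.

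Some Hox and retinoid genes also differed, where 10.0% of all genes had a called higher step with ATRA and 8.89% a lower one. Of 14 genes of paralogue groups 1 to 5, 1 had a higher step with ATRA and 8 a lower one, among them Hoxc4, which moved by -0.92 with ATRA and 1.47 with BMS753, and Hoxb4, which moved by -0.38 with ATRA and 1.51 with BMS753. The difference was -2.39 ± 0.20 (SE), adjusted p = 1.83e-06, for Hoxc4 and -1.90 ± 0.18 (SE), adjusted p = 4.35e-06, for Hoxb4. Nr2f1 and Nr2f2 (COUP-TFs), orphan receptors known to be induced by retinoic acid, moved by 0.30 with ATRA and 2.20 with BMS753 for Nr2f1 and by 0.89 with ATRA and 2.20 with BMS753 for Nr2f2. Nr2f1 differed by -1.90 and Nr2f2 by -1.31. Crabp2, which carries retinoic acid to its receptors, moved by -1.32 with ATRA and 0.25 with BMS753, a difference of -1.57 ± 0.13 (SE), adjusted p = 1.14e-06. Irx3, a homeobox factor of the neural tube, moved by -2.52 with ATRA and 0.43 with BMS753, a difference of -2.95 ± 0.17 (SE), adjusted p = 4.67e-08.

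In some genes with low adjusted p-values for the step, no difference between the agents was called. A difference between the agents is part of the residual of the step fit, so a low adjusted p favours genes whose agents moved alike. The lack of a called difference in such genes is thus no separate evidence that the agents moved alike. The difference for Cdh1 was -0.07, 95% interval -0.27 to 0.13, for Esrp1 -0.01, 95% interval -0.21 to 0.19, for Bmp4 -0.10, 95% interval -0.46 to 0.26 and for Msx2 0.14, 95% interval -0.22 to 0.50. These intervals include 0 and none reaches 1 log2 unit in either direction, under the same assumption on lone arrays.

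The 0.1 µM arrays are the other measure of a further 24 h in culture. No gene was called for the step from 48 to 72 h with BMS641 and BMS961 (0.0% by limma, 240 genes or 1.2% at an unadjusted p under 0.05). This test used the pooled spread, while the median residual standard deviation was 0.061 over the 0.1 µM arrays and 0.12 over the 1 µM arrays. Small changes could thus be missed. Where only the EtOH arrays set the spread, no gene was called either, with 687 at an unadjusted p under 0.05 by limma. A single gene moved by at least 1 log2 unit with BMS641 and 1 with BMS961, and the standard deviation over genes was 0.104 with each. These agents differ from ATRA and BMS753 in both agent and dose, so the 2 cannot be told apart.

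The 1 µM step minus the 0.1 µM step was called in 45 genes (0.226%), higher in 25 (0.125%) and lower in 20 (0.1%), and all 45 were also called for the 1 µM step. Both tests come from 1 fit, and the difference contains the 1 µM step with a larger SE. The overlap thus follows largely from the fit and is not a separate result. Aldh1a2 had the largest positive difference, 2.82 ± 0.51 (SE), adjusted p = 0.0378. With BMS641 it moved by -0.01 and with BMS961 by 0.10. Rbms3 differed by 1.83 ± 0.33 (SE), adjusted p = 0.0369, Bmp4 by 1.72 ± 0.14 (SE), adjusted p = 4.68e-05, Aff2 by 1.58 ± 0.24 (SE), adjusted p = 0.0111, Erbb4 by 1.43 ± 0.21 (SE), adjusted p = 0.00902 and Glrb by 1.27 ± 0.19 (SE), adjusted p = 0.0111. The 6 largest negative differences were in genes named above for their falls and in Lrp11 and Gng3. Esrp1 differed by -2.0 ± 0.28 (SE), adjusted p = 0.0087, Epcam by -1.60 ± 0.21 (SE), adjusted p = 0.00468, Cdh1 by -1.56 ± 0.13 (SE), adjusted p = 4.68e-05 and Zscan10 by -1.41 ± 0.27 (SE), adjusted p = 0.0498. Lrp11, a receptor of the LDL family, read 7.74 with ATRA and 7.69 with BMS753 at 72 h, against 8.71 with ATRA and 8.85 with BMS753 at 48 h, a difference of -1.06 ± 0.10 (SE), adjusted p = 0.000103, and Gng3, a G protein γ subunit, differed by -1.03 ± 0.18 (SE), adjusted p = 0.0332. The calls of this difference for Aldh1a2, Rbms3, Zscan10 and Gng3 were lost without each EtOH array in turn. Over the 6 falling genes the BMS641 and BMS961 steps were between -0.12 and 0.07 log2 units.

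Against the step before, from 24 to 48 h, 137 genes moved differently (0.687%), 71 more upward (0.356%) and 66 more downward (0.331%). Both steps share the 48 h arrays, so a stray value at 48 h would enter both with opposite sign. Of the 137, 43 also had a called step from 48 to 72 h, and 36 of these turned round between the steps. An earlier step of opposite sign widens the change of step, so choosing genes by both calls favours those that turned round. Turns were not counted over all genes, so the 36 are not a separate result. Prrx1 read 8.89 with ATRA and 6.66 with BMS753 at 24 h, then lower values at 48 h and higher ones again at 72 h, and the later step minus the earlier was 3.16 ± 0.54 (SE), adjusted p = 0.0145. Plagl1, with 1.19 ± 0.22 (SE), adjusted p = 0.0275, Hey2, with 1.05 ± 0.21 (SE), adjusted p = 0.0343, Mdm2, with 0.69 ± 0.11 (SE), adjusted p = 0.00969, and Slc3a2, an amino acid transporter subunit, with 0.76 ± 0.11 (SE), adjusted p = 0.0048, also had turned upward. Jag1 turned downward, with -2.08 ± 0.41 (SE), adjusted p = 0.0343: its earlier steps were 0.46 with ATRA and 1.78 with BMS753. Lrp11 had earlier steps of only -0.28 with ATRA and -0.21 with BMS753, and its change of step was -0.83 ± 0.12 (SE), adjusted p = 0.0048. The call of Jag1 was lost without each EtOH array in turn, those of Hey2 and Plagl1 without EtOH replicate 2 or 4, and all 7 without the 0.1 µM arrays. The leading genes Aldh1a2, Cdh1, Bmp4 and Pou5f1 had no called change of step, with 1.78 for Aldh1a2, -0.60 for Cdh1, -0.12 for Bmp4 and -0.29 for Pou5f1.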

How the data were processed

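P19 cells were profiled on Affymetrix Mouse Gene 1.0 ST arrays. The authors deposited 1 log2 intensity for each probe set and array, computed in Affymetrix Expression Console 1.1, per the submitters' processing notes. Background correction, summarization and normalization are not given in the sources used here, and the log2 scale was judged from the range, 2.86 to 14.3. Of 35556 probe sets, 21789 carried a single gene symbol, 1621 carried more than 1 and 12146 stayed unnamed, and 21698 matched a gene identifier of the RefSeq table, which changed 0 symbols. For 999 genes with over 1 probe set the brightest was kept, which left 19938 genes with no filter on low signal. Precision is limited by how few arrays there were.

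All steps but 1 came from 1 limma 3.58.1 fit in R 4.3.3 (lmFit, eBayes with trend=TRUE) of 24 arrays, with a mean for EtOH and, per dose, agent and time terms (residual degrees of freedom 11, prior 3.83). The difference of the ATRA and BMS753 steps came from a fit with a mean for each agent and time (residual 3, prior 10.4). Tests were two-sided and adjusted over all 19938 genes within each of 5 comparisons. Both fits were tested on simulated data with known changes.

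Named genes were the 15 largest called rises and falls of the step with at least 0.5 log2 units in each agent, the 6 largest each way of the agent and dose differences, the markers, and any member of 32 gene lists (770 genes, 722 with a value, 31 in more than 1 list). Predicted and unnamed transcripts and small RNAs were passed over. The members and lists were chosen with earlier results of these data known, so lists are described by counts and medians without a test. Promoters came from RefSeq (GRCm38.p6). Alternatives were other filters, normalization, probe set averaging, moderation, thresholds and sets of arrays.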

Additional observations from a re-analysis of the deposited data

Results flagged for a closer look

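The ATRA and BMS753 steps differed in 3770 genes by the test of the difference itself. Of 31 genes, the leading genes of the step with Acta2, 20 had a called difference. Over all genes the share was 18.9%, and of the 833 genes with a called step 295 had one. The leading genes were chosen for large steps, which leave more room for a difference, so their count is not a separate result. Among the genes named for it, the ATRA step minus the BMS753 step, in log2 units, was positive in Tnc (4.11), Tdgf1 (3.74), Cpa6 (3.58), Fgf5 (3.52), Cxcl12 (3.49), Nfia (3.37), Tgfb2 (2.63), Ina (2.51), Snap25 (2.46), Timp3 (2.36), Rspo3 (2.24), Aldh1a2 (2.14), Postn (2.08), Cnn1 (2.05), Actc1 (2.00), Spry4 (1.98), Hoxc8 (1.93), Nefl (1.90), Eras (1.90), Spry2 (1.88), Acta2 (1.85), Elavl3 (1.81), Nr0b1 (1.77), S1pr3 (1.71), Igf2 (1.66), Sema3c (1.66), Bmp5 (1.64), Tagln (1.62), Syt1 (1.50), Pcolce (1.47), Neurod1 (1.36), Sytl2 (1.06), Rbms3 (0.89), Trabd2b (0.75), Plk2 (0.61) and A2m (0.57). It was negative in Cp (-5.36), Arg1 (-4.31), Hoxc5 (-4.06), Cpm (-4.03), Gcnt4 (-3.81), Ifitm1 (-3.74), Tfap2b (-3.22), Irx3 (-2.95), Dcn (-2.40), Hoxc4 (-2.39), Cyp26a1 (-2.36), Nr2f1 (-1.90), Hoxb4 (-1.90), Ephx2 (-1.70), Crabp2 (-1.57), Aldoc (-1.50), Nr2f2 (-1.31), Pfkl (-1.24), Ccnd2 (-1.21), Idi1 (-1.04), Mvd (-0.98), Birc5 (-0.81), Epcam (-0.71) and Pou5f1 (-0.62). Each value rests on 1 array per agent and time.

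The steps of the 1 µM and 0.1 µM agents differed in 45 genes. The 1 µM step minus the 0.1 µM step, in log2 units, was positive in Aldh1a2 (2.82), Rbms3 (1.83), Bmp4 (1.72), Aff2 (1.58), Erbb4 (1.43) and Glrb (1.27), and negative in Esrp1 (-2.0), Epcam (-1.60), Cdh1 (-1.56), Zscan10 (-1.41), Lrp11 (-1.06) and Gng3 (-1.03).

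An EtOH array stood apart from the other 3 by Dixon's test in 2 of 52 genes checked, and chance gives about 1 in 20 such groups. Ephx2 read 6.13 in EtOH replicate 2, against 6.49 to 6.57 in the others, and Upp1 read 10.9 in EtOH replicate 1, against 10.6 to 10.7.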

How the results depend on the processing

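No called step or difference of a named gene reversed its direction under any alternative run. Most alternatives could not have shown a reversal, because they change the spread or the threshold and leave the estimate as it was. Leaving out an agent could not either, since every called step has the same sign with both agents. Only quantile normalization and the mean of the probe sets could have reversed a call. Only some of the uncalled steps were checked for a reversal. Of these, without BMS753 those of Aldh1a1 (-0.20), Hoxd8 (-0.21), Nanog (0.55) and Tdgf1 (0.32) reversed, and without ATRA those of Cnn1 (-0.27) and Snai1 (-0.39). Other named genes with an uncalled step, such as Tnc and Fgf5, moved in opposite directions with the agents, so their step also depends on which agent is kept. The 833 called steps became 125 with at least a 2-fold change, 4819 where only the EtOH arrays set the spread, 6211 without BMS753, 3139 without ATRA, 91 without the 0.1 µM arrays (added after the spread was seen), and 0 both in the 10 arrays of ATRA and BMS753 (1341 at an unadjusted p under 0.05) and in their 4 arrays at 48 and 72 h (1169). Leaving out each EtOH array gave 560 to 616. The other alternatives gave 561 with no agent term and 767 to 1065 otherwise, and quantile normalization moved the share of rises to 43.8%, against 52.9%. The 3770 differences between ATRA and BMS753 became 856 at 2-fold and 3087 to 4528 without an EtOH array. The 45 differences from the 0.1 µM step became 21 at 2-fold, 2890 with the EtOH spread alone and 20 to 24 without an EtOH array. The 137 changes of step became 79 at 2-fold, 2907 with the EtOH spread alone, 0 in the 10 arrays (670 at an unadjusted p under 0.05), 11 without the 0.1 µM arrays (1457 at an unadjusted p under 0.05) and 65 to 88 without an EtOH array. The 0.1 µM step had no call under any alternative. Of the 105 named genes with a called step, 30 lost the call without at least 1 EtOH array and 21 without each of the 4. Acta2, Aldoc, Apoe, Bmp5, Cdc25a, Cyp26a1, Dnmt3b, Ephx2, Gas1, Kcnj3, Neurod4, Nr0b1, Nrp1, Robo3, Sall4, Sytl2, Tfap2b and Tgfb2 lost it with robust moderation, Irf1 and Sema4d with the mean of the probe sets, Elovl6, Mcm2 and Wnt6 with quantile normalization, and 39 genes, Pou5f1 and Otx2 among them, with no agent term. Without the 2 and 6 h arrays 20 lost it, Dcn, Ephx2, Vim and Rspo3 among them. The causes of these losses were not tested. The labels number only the EtOH arrays, so no replicate number pairs the times, and the pairing by agent is the agent term of the fit.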

Other observations

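Gene groups not described above gave 1 or 2 calls each. Of 15 genes of interferon and antigen presentation, Irf1, an interferon-induced transcription factor, and Bst2 (tetherin) fell and none rose, with steps of -0.65 ± 0.16 (SE), adjusted p = 0.0384 for Irf1 and -0.65 ± 0.14 (SE), adjusted p = 0.0196 for Bst2. The other probe set of Irf1 moved by 0.01 with ATRA and -0.09 with BMS753. Of 25 genes of ATF4, amino acids and stress, Slc3a2 rose and none fell, with a step of 0.26 ± 0.06 (SE), adjusted p = 0.0361. Of 22 FGF genes, Fgf9 rose and none fell, with a step of 0.51 ± 0.12 (SE), adjusted p = 0.0256, and of 10 genes of RNA quality and housekeeping Sdha, a mitochondrial dehydrogenase subunit, fell, with a step of -0.22 ± 0.05 (SE), adjusted p = 0.0319. The call of Irf1 was lost without each EtOH array in turn, that of Slc3a2 without EtOH replicate 1, 3 or 4, and that of Sdha without EtOH replicate 4.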
